A study of Mus musculus with 6 samples.

Results

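The genes examined were 10 genes of the transforming growth factor beta (TGF-beta) pathway, chosen by name from the 49315 mouse genes in the deposited count table. They were the ligand genes Tgfb1, Tgfb2 and Tgfb3, the latent ligand-binding gene Ltbp1, the receptor genes Tgfbr1, Tgfbr2 and Tgfbr3, and the signal transducer genes Smad2, Smad3 and Smad7. All 10 had a row in the table, and 9 passed the low-count filter. Tgfb3 did not. The RNA came from MK cells, an immortalized line of mouse skin keratinocytes, in 2 groups of 3 libraries. Control was the line MK-546 (MK-/-), which lacks the α3 integrin subunit, and 3A was MK-546-ha3A (MK-/-:ha3), the same line given human α3. Neither group was treated, both grew in full medium on collagen-coated dishes, and each group was 1 line, so α3 and the history of the line cannot be told apart. The question was which mRNA levels differ with the laminin receptor α3β1.

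TGF-beta is secreted as a latent dimer in which the ligand stays bound to its propeptide, and LTBP proteins tether this complex to the extracellular matrix. Released ligand binds the type II receptor, which recruits and phosphorylates the type I receptor, and this kinase phosphorylates Smad2 and Smad3, which enter the nucleus with Smad4 and regulate transcription. In normal keratinocytes the pathway is known for stopping proliferation and for raising matrix and adhesion genes. Smad7, an inhibitory Smad, is itself a target of the pathway and blocks the type I receptor.

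Total counts ranged from 25634204 to 36245240 per library. Control 1 stood apart from the other 2 Control libraries. Across tested genes its Pearson r was 0.957 and 0.953 with Control 2 and Control 3, against 0.988 between those 2. Its r with 3A 1, 3A 2 and 3A 3 was 0.9458, 0.9554 and 0.9515. It thus correlated with 3A 2 and 3A 3 about as well as with Control 2 and Control 3. Within 3A, 3A 1 had r of 0.985 and 0.982 with 3A 2 and 3A 3, against 0.994 between those 2. These values are a description over genes that are not independent. Mitochondrially encoded genes took 1.17% of counts in Control 1, 4.19% and 4.73% in Control 2 and Control 3, and between 1.24% and 1.59% in 3A. All 8 keratinocyte markers were detected and passed the filter, with summed levels of 9532 to 11220 CPM (counts scaled to a common library size) in Control and 6791 to 8776 in 3A. Summed fibroblast markers (8 genes) reached 2.38 to 3.36 CPM in Control and 2.05 to 3.40 in 3A, with Lum at 0 in every library. Summed endothelial markers (5 genes) reached 0.479 to 0.594 and 0.585 to 1.03 CPM, and melanocyte markers (6 genes) 3.28 to 3.91 and 1.63 to 2.13 CPM, with Dct and Tyr at 0. The 6 immune markers summed to 41.5 to 62.4 CPM in Control and 34.3 to 41.1 in 3A, mostly from Cd74, and the leukocyte gene Ptprc had at most 2 counts in a library. The keratinocyte sums did not overlap between groups, while the means of Itga6 and Itgb4 were higher in 3A. The part of the keratinocyte, melanocyte and immune differences in the results below was not tested. In bulk RNA fewer cells of a type and less RNA per cell cannot be told apart.

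Among the 9 tested members, the type I receptor gene Tgfbr1 rose in 3A and the ligand gene Tgfb2 fell (edgeR's quasi-likelihood test, Benjamini-Hochberg adjusted p under 0.05). The other 7 did not pass. Over all 13704 tested genes 14.9% were called, 7.52% higher and 7.39% lower, and 2 called of 9 is near that share. The 3 libraries of 3A lay entirely above or below those of Control for 5 members, Tgfb1, Tgfb2, Tgfbr1, Tgfbr2 and Smad7, against 36.1% of all tested genes. The median log2 fold change (3A over Control) was 0.42 over the 9 members and -0.02 over all tested genes, and the members ranged from -1.40 to 1.17.

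Windows of the 250 bases before the annotated RefSeq start (GRCm38.p6, each gene's own strand) are shown for these 2 called members, because they moved in opposite directions. Capitals mark the letters TATAAA on the sense strand, or GGGCGG (a GC box) on either strand. The Tgfb2 window lies at chr1:186705990-186706239 on the minus strand and the Tgfbr1 window, the first of 2 that RefSeq gives this gene, at chr4:47352972-47353221 on the plus strand.
Tgfb2: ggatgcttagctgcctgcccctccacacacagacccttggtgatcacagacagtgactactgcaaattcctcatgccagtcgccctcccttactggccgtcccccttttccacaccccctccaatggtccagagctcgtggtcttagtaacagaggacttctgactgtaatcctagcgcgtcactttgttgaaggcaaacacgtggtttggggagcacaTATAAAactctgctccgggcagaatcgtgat
Tgfbr1: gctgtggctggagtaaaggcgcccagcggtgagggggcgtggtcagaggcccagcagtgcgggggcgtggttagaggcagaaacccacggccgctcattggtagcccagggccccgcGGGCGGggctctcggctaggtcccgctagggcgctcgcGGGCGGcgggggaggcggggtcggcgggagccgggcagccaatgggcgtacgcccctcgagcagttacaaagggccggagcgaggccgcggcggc
The Tgfb2 window was 53.6% G and C and held 1 TATAAA, at position -31 from the start, and no GC box. The Tgfbr1 window was 74.8% G and C and held 2 GC boxes, at -133 and -95, and no TATAAA. The second Tgfbr1 window, at chr4:47385966-47386215 within the gene, was 52.8% G and C and held neither motif. Of all 32851 windows of this length, 7.59% held TATAAA and 32.7% a GC box. The Tgfb1 window, at 75.2% G and C, held 5 GC boxes. RefSeq promoter windows were found for 6 members, Tgfb1, Tgfb2, Tgfbr1, Tgfbr2, Ltbp1 and Smad3. Smad7, Smad2, Tgfb3 and Tgfbr3 had no window and were not scanned. None of the 300-base windows of those 6 held the palindromic Smad binding element GTCTAGAC, the CAGA box AGCCAGACA or the AP-1 core TGANTCA on either strand. These occurred in 0.213%, 0.387% and 7.81% of all windows. Gene-level counts leave the start site in use unknown.

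Of the 3 ligand genes, Tgfb1 supplied nearly all ligand mRNA, Tgfb2 was scarce and lower in 3A, and Tgfb3 was at the detection floor. Tgfb1 (ENSMUSG00000002603, chromosome 7, 25687002 to 25705077, GRCm38) encodes the ligand best known as a growth inhibitor of epithelial cells. Control 1, 2 and 3 had 60.3, 74.3 and 66.4 CPM, against 53.6, 54.3 and 47.6 CPM for 3A 1, 2 and 3. Every 3A library lay below every Control library, but the gap between the nearest libraries of the 2 groups was smaller than the spread within Control. The log2 fold change was -0.37 (SE 0.15, 95% confidence interval -0.72 to -0.02) and did not pass (edgeR adjusted p = 0.127).

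Tgfb2 (ENSMUSG00000039239, chromosome 1, 186622792 to 186705989) encodes a ligand that needs betaglycan, the Tgfbr3 product, for efficient receptor binding. It had 24, 27 and 21 counts in the Control libraries and 8, 15 and 12 in 3A, or 0.761, 0.923 and 0.892 CPM against 0.229, 0.400 and 0.334 CPM. The groups did not overlap, and the means ± SD (n = 3) were 0.858 ± 0.0859 CPM for Control and 0.321 ± 0.0860 CPM for 3A. The log2 fold change was -1.40 (SE 0.34, 95% confidence interval -2.20 to -0.61, edgeR adjusted p = 0.0345), a 2.64-fold lower level in 3A. The call rests on 72 counts in Control and 35 in 3A. It was kept without Control 1 and lost without any other single library (edgeR adjusted p from 0.0952 to 0.147). It was also lost with no low-count filter (edgeR adjusted p = 0.0903), and Tgfb2 was not tested when at least 1 CPM in 3 libraries was required, a filter under which 15.5% of genes were called.

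Tgfb3 (ENSMUSG00000021253, chromosome 12, 86056745 to 86079041), the third ligand gene, had 1 count over the 3 Control libraries and 4 over the 3 of 3A. The ratio of 3A to Control was 3.12 with a 95% exact binomial interval of 0.308 to 153, which covers counting error only, so no difference was detectable at this depth. Per length, Tgfb1 made up 98.9% ± 0.0516 (SD, n = 3) of the summed ligand level in Control and 99.4% ± 0.129 in 3A. The Tgfb2 share was 1.09%, 1.07% and 1.16% for Control 1, 2 and 3, against 0.371%, 0.636% and 0.608% for 3A. All 3A libraries were below all Control libraries. The difference of -0.57 percentage points gave p = 0.1 in a two-sided exact permutation test, the smallest that 3 against 3 libraries can give. It was -0.33 percentage points with the longest transcript of each gene as its length. The Tgfb1 and Tgfb3 shares gave exact p = 0.1 and 0.4, so the lowest of the 3 adjusts to no less than 0.1.

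Ltbp1 (ENSMUSG00000001870, chromosome 17, 75005568 to 75392512), whose product tethers latent ligand to matrix, did not pass the test. The Control libraries gave 36.2, 45.6 and 45.4 CPM and the 3A libraries 37.1, 33.6 and 35.4 CPM. Control 1 lay within the range of the 3A libraries, so the groups overlapped. The log2 fold change with 6 libraries was -0.26 (95% confidence interval -0.62 to 0.10, edgeR adjusted p = 0.259).

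**Figure D1:**
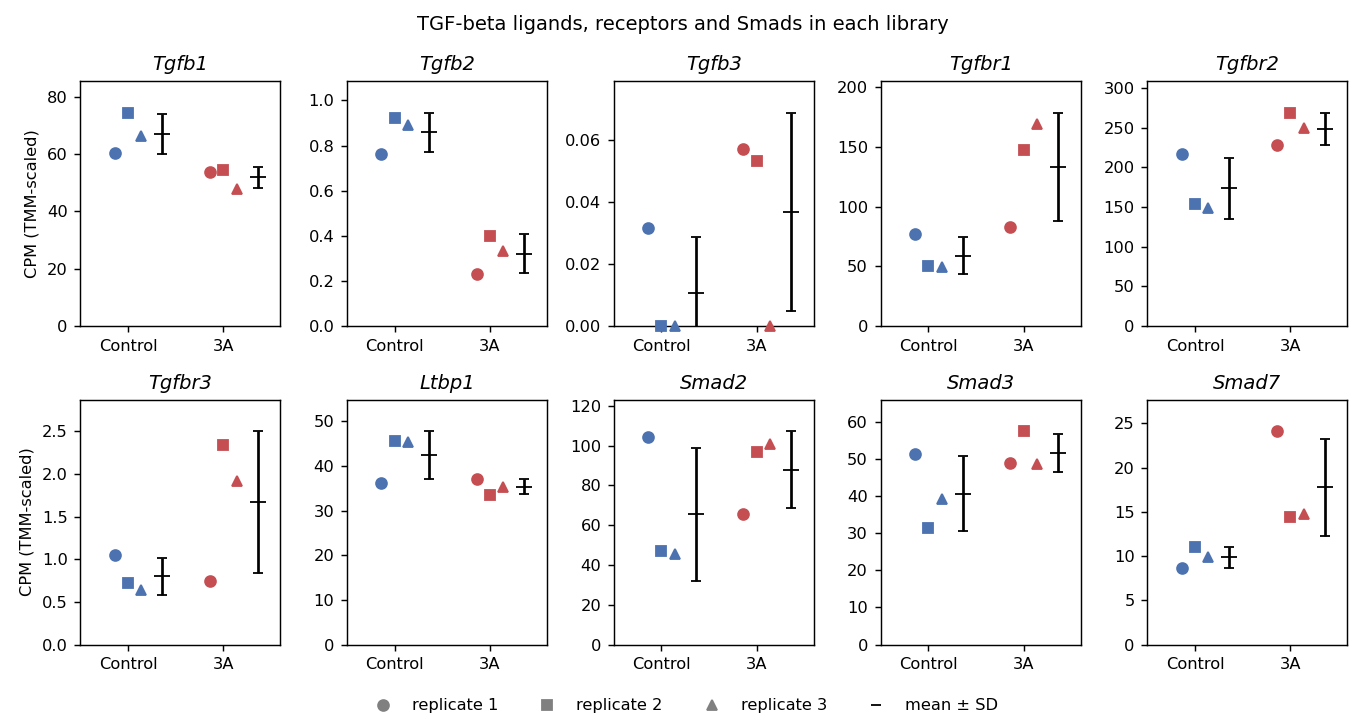
CPM (vertical axis, from 0, TMM-scaled library sizes) of the 10 genes in the 3 Control and 3 3A libraries; points are libraries and bars the mean ± SD. Tgfb1, Tgfb2, Tgfbr1, Tgfbr2 and Smad7 show no overlap between groups, against 36.1% of all tested genes. Control 1 lies apart from Control 2 and Control 3 for Tgfbr1, Tgfbr2, Smad2 and Smad3.

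The receptor genes all had higher means in 3A, and Tgfbr1 passed the test. Tgfbr1 (ENSMUSG00000007613, chromosome 4, 47353222 to 47414931) encodes the type I receptor kinase, ALK5. Control 1, 2 and 3 gave 76.8, 50.7 and 49.7 CPM, against 82.5, 148 and 169.5 CPM for 3A 1, 2 and 3. The groups did not overlap, but the lowest 3A library, 3A 1, lay close above the highest Control library, Control 1. The log2 fold change was 1.17 (SE 0.31, 95% confidence interval 0.45 to 1.89, edgeR adjusted p = 0.0444), a 2.26-fold higher level. It was 1.42 without Control 1 (edgeR adjusted p = 0.00523) and 1.43 without 3A 1 (edgeR adjusted p = 0.0261). Without any other library it was 0.97 to 1.10 and not called (edgeR adjusted p from 0.137 to 0.167 over those 4 fits). With library size alone as the scaling, edgeR's adjusted p was 0.0550.

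Tgfbr2 (ENSMUSG00000032440, chromosome 9, 116084293 to 116175360), the type II receptor gene that binds ligand first, gave 217, 154 and 149 CPM for the Control libraries, against 229, 268 and 249 CPM for 3A. Here too the groups did not overlap while Control 1 lay next to 3A 1. The log2 fold change was 0.52 (SE 0.19, 95% confidence interval 0.08 to 0.96) and did not pass (edgeR adjusted p = 0.105), except without Control 1, when it was 0.73 (edgeR adjusted p = 0.00360). Tgfbr3 (ENSMUSG00000029287, chromosome 5, 107106570 to 107289629) encodes betaglycan, a co-receptor without kinase activity. The values were 1.05, 0.718 and 0.637 CPM for Control against 0.745, 2.35 and 1.92 CPM for 3A, with 3A 1 inside the Control range. Its log2 fold change of 1.05 did not pass (95% confidence interval -0.05 to 2.15, edgeR adjusted p = 0.160).

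The per-length ratio of Tgfbr1 to Tgfbr2 mRNA was 0.443, 0.412 and 0.419 for Control 1, 2 and 3, against 0.453, 0.689 and 0.853 for 3A 1, 2 and 3. The Control libraries were close together, and 3A 1 lay just above them. The 2 groups did not overlap (two-sided exact permutation p = 0.1, the smallest the design can give), and 3A 2 and 3A 3 had the highest ratios.

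The effector Smad genes Smad2 and Smad3 did not pass the test with 6 libraries, and the inhibitory Smad7 missed the threshold narrowly. Smad2 (ENSMUSG00000024563) gave 104, 47.0 and 45.3 CPM for Control 1, 2 and 3, against 65.6, 96.9 and 101 CPM for 3A 1, 2 and 3. Control 1 was the highest of all 6 libraries and Control 2 and 3 the lowest, so the groups overlapped (log2 fold change 0.42, 95% confidence interval -0.41 to 1.26, edgeR adjusted p = 0.421). Without Control 1 it reached 0.94 on the log2 scale (edgeR adjusted p = 0.00665), and without Control 2 or Control 3 it was 0.23 or 0.21. Smad3 (ENSMUSG00000032402, chromosome 9, 63646767 to 63757994), the effector that binds DNA directly, gave 51.4, 31.3 and 39.2 CPM for Control, against 48.9, 57.4 and 48.6 CPM for 3A. Its log2 fold change was 0.35 (95% confidence interval -0.14 to 0.83, edgeR adjusted p = 0.271), against 0.56 without Control 1 (edgeR adjusted p = 0.0195) and 0.18 without Control 2.

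Smad7 (ENSMUSG00000025880) gave 8.59, 11.0 and 9.94 CPM for Control, against 24.1, 14.4 and 14.8 CPM for 3A. Each 3A library lay above each Control library, and 3A 1 was the highest by a wide margin. The means ± SD (n = 3) were 9.84 ± 1.21 CPM for Control and 17.8 ± 5.47 CPM for 3A. The log2 fold change was 0.85 (SE 0.24, 95% confidence interval 0.28 to 1.43, edgeR adjusted p = 0.0582). DESeq2 called it (adjusted p = 0.0156), as did edgeR with library size alone (adjusted p = 0.0461), with no low-count filter (adjusted p = 0.0412) and without Control 1 (adjusted p = 0.0313). These 4 were the only calls among 15 alternative fits, and with the replicate number as a block edgeR's adjusted p was 0.243. Without 3A 1 the log2 fold change was 0.58 and not called (edgeR adjusted p = 0.0959). Over all genes 26.0% were called by DESeq2, 13.0% with library size alone and 8.17% with no low-count filter.

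Leaving out Control 1 changed the number of members called more than leaving out any other library. It also gave the largest shift in log2 fold change for Tgfbr2, Ltbp1, Smad2 and Smad3, but not for the other members. Tgfb2, Tgfbr3 and Smad7 moved further without 3A 1 (to -1.205, 1.41 and 0.58) than without Control 1 (-1.47, 1.31 and 0.77). For 8 of the 9 tested members Control 1 was the Control library nearest to the 3A mean on the log2 scale, the exception being Smad7, and the same held for 57.3% of all tested genes. Without it edgeR called 8 of the 9 members, with Tgfbr1, Tgfbr2, Smad2, Smad3 and Smad7 higher and Tgfb1, Tgfb2 and Ltbp1 lower in 3A, but 52.0% of all genes tested in that fit were called as well. Control 1 also had a mitochondrial share of counts (1.17%) below that of every 3A library, and the part of this share in the members' values was not tested. When Control 2, Control 3, 3A 2 or 3A 3 was left out, edgeR called 0 members, against 5.99%, 6.98%, 4.72% and 4.77% of all genes. DESeq2 with 6 libraries called 3 members, against 26.0% of all tested genes. Without 3A 1 edgeR called Tgfbr1 and no other member, against 9.18% of all genes. With 6 libraries 5 members had an unadjusted edgeR p under 0.05, against 34.0% of all tested genes.

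**Figure D2:**
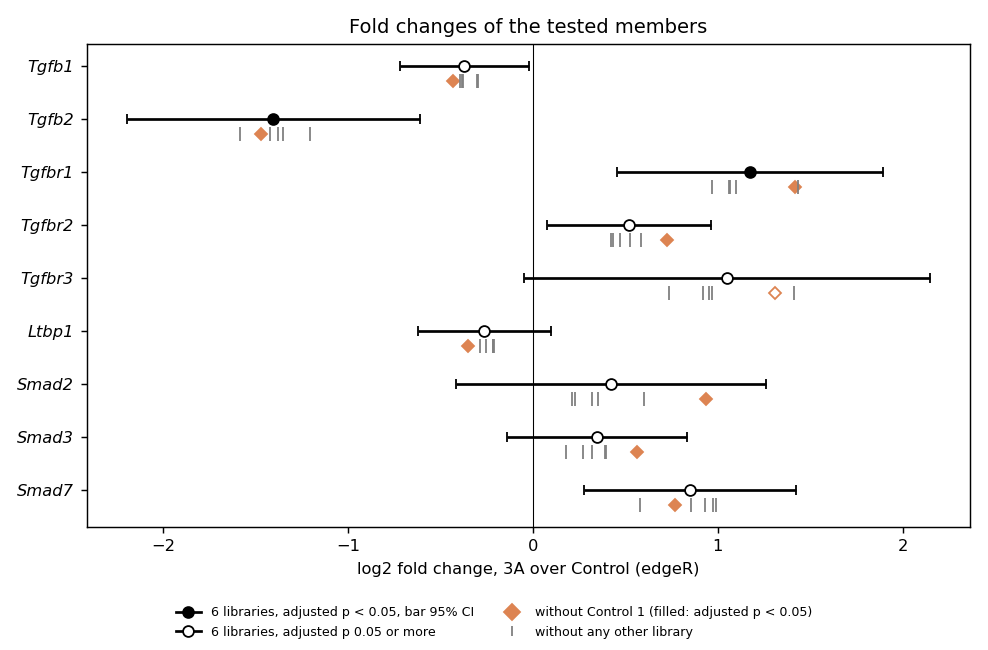
Log2 fold change of 3A over Control (horizontal axis) for the 9 tested members, with 95% confidence intervals; filled circles passed an adjusted p of 0.05. Diamonds give the value without Control 1 and ticks the values without each other library; no member changed sign in any of these fits.

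Compared per kilobase of exon, the type II receptor gene had the highest level and 2 of the ligand genes were among the lowest. In Control the order was Tgfbr2 (21.2 ± 4.66 CPM per kilobase, SD, n = 3), Tgfb1 (13.3 ± 1.39), Tgfbr1 (9.04 ± 2.35), Smad2 (7.46 ± 3.82), Smad3 (7.33 ± 1.83), Ltbp1 (3.97 ± 0.499), Smad7 (2.18 ± 0.268), Tgfb2 (0.148 ± 0.0148), Tgfbr3 (0.122 ± 0.0331) and Tgfb3. The library ranges of Tgfbr1 and Smad2, of Smad2 and Smad3, and of Tgfb2 and Tgfbr3 overlapped, so these neighbours were not separated. In 3A, Tgfbr2 again led (30.4 ± 2.43), Tgfbr1 was next (20.4 ± 6.92) and Tgfb1 followed (10.3 ± 0.730), its range overlapping that of Smad2. Tgfbr1 thus stood below Tgfb1 in Control and above it in 3A, with no overlap of library ranges in either group. Smad7 (3.93 ± 1.21) stood above Ltbp1 (3.31 ± 0.163) in 3A, with overlapping ranges, and Tgfbr3 (0.255 ± 0.127) above Tgfb2 (0.0554 ± 0.0149), without overlap. The order depended in part on the gene model. With the longest transcript as the length, Tgfb1 (26.0) led Tgfbr2 (21.4) in Control, and Ltbp1 (5.30) stood above Smad7 (4.15) in 3A, both pairs with overlapping ranges. With that length the 3A ranges of Tgfbr1 and Tgfb1 overlapped too, the lowest Tgfbr1 library being at 14.3 and the lowest Tgfb1 library at 18.5, so their order in 3A was not separated.

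**Figure D3:**
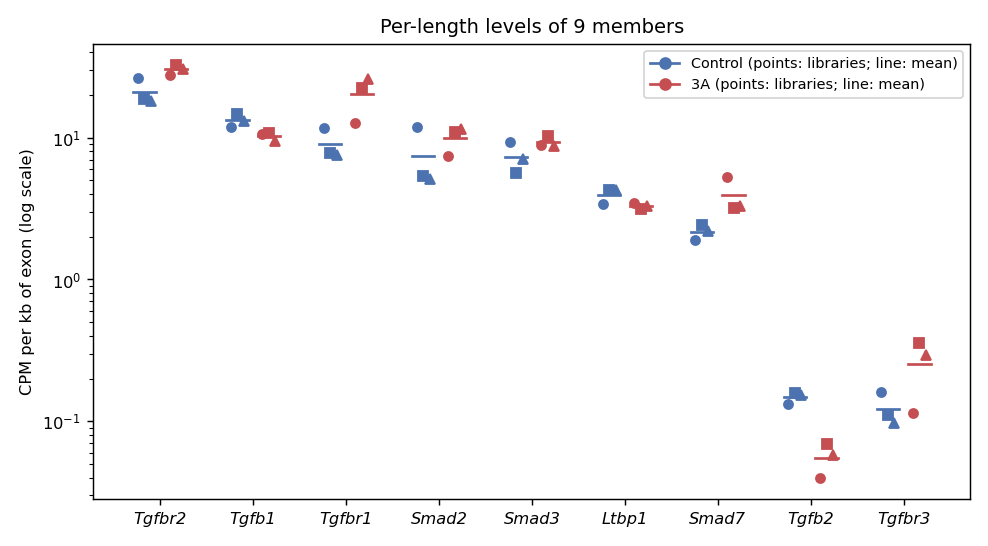
CPM per kilobase of exon (vertical log axis) of 9 members in Control and 3A, ordered by the Control mean; points are libraries and lines are means. Tgfb3 is left out because it is at 0 in 3 of the 6 libraries; Tgfbr1 lies above Tgfb1 in 3A with exon union lengths.

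Other genes of the pathway were read from lists of 36 partner genes, of which 32 were tested. Of these 1 rose, 4 fell and 27 did not pass, or 15.6% called against 14.9% over all genes, with a median log2 fold change of -0.08. In the latency and activation group (8 tested) Thbs1, encoding thrombospondin-1, an activator of latent TGF-beta, rose from 301, 255 and 256 CPM in Control to 376, 545 and 564 CPM in 3A (log2 fold change 0.87, SE 0.20, edgeR adjusted p = 0.0286). Lrrc32, encoding GARP, which holds latent TGF-beta at the cell surface, fell from 1.21, 2.12 and 1.57 CPM to 0.115, 0.0533 and 0.111 CPM (log2 fold change -4.08, SE 0.44, edgeR adjusted p = 0.00172). It was called in all 15 alternative fits. Itgav and Itgb6, which encode the αvβ6 integrin that activates latent ligand in epithelia, had log2 fold changes of 0.52 and 0.35 and did not pass (edgeR adjusted p = 0.106 and 0.157). Itgb8 was at 0 in every library.

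The activin branch list held inhibin and activin subunit genes and follistatin genes, not all of which encode activins. Activins also signal through Smad2 and Smad3. Of its 4 tested genes 2 fell, against 7.39% of all tested genes. Inha fell from 4.86 ± 0.500 to 1.47 ± 0.218 CPM and Inhba from 1.94 ± 0.608 to 0.575 ± 0.164 CPM (SD, n = 3). Their log2 fold changes were -1.72 and -1.75 (edgeR adjusted p = 0.00431 and 0.0230). Inhbb, at 77.0 and 64.4 CPM the most abundant inhibin subunit gene, did not pass (edgeR adjusted p = 0.246). Of the 6 other tested receptor genes, Acvr2b, an activin type II receptor gene, fell by 2.05 on the log2 scale from 1.93 CPM, and the other 5 did not pass. Of the 5 called partner genes, Lrrc32 and Inha were called in each of the 6 fits without 1 library, and Acvr2b, Thbs1 and Inhba in 4, 2 and 1 of them (highest edgeR adjusted p 0.0614, 0.137 and 0.121). None of the 14 Smad partners and negative regulators was called by edgeR with 6 libraries, where 5 had an unadjusted p under 0.05, near the 34.0% over all tested genes. Smad4, the shared partner, was at 82.8 ± 33.6 CPM for Control and 101 ± 9.31 CPM for 3A (log2 fold change 0.29, edgeR adjusted p = 0.475).

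Genes known to respond to TGF-beta moved in both directions. Of 23 tested of 28, 5 rose, 4 fell and 14 did not pass, or 39.1% called against 14.9%, with a median log2 fold change of -0.15. The list was chosen with earlier results of these data known, several of its genes answer to other pathways too, and its share was not tested. Smad7, Skil and Pmepa1 are targets too but were counted in the other lists, and none was called (edgeR adjusted p = 0.0582, 0.199 and 0.541). Among the 18 tested genes that TGF-beta is known to raise, 5 rose and 2 fell, against 7.52% and 7.39% of all tested genes. Col4a1, a basement membrane collagen gene, gave 47.7, 29.1 and 27.3 CPM for Control, against 86.1, 129 and 140.0 CPM for 3A (log2 fold change 1.77, SE 0.29, edgeR adjusted p = 0.00841). There was no overlap, with the lowest 3A library above the highest Control library by more than the whole Control range. Bhlhe40, a transcriptional repressor gene, rose by 1.33 on the log2 scale, the matricellular gene Ccn2 by 0.88 and the cell cycle inhibitor gene Cdkn2b by 0.59. The matrix gene Fn1 rose by 1.43.

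The 2 that fell were Tgfbi, a matrix gene named for its induction by TGF-beta, and the transcription factor gene Snai2. Tgfbi went from 9.86, 8.48 and 7.22 CPM in Control to 0.459, 0.640 and 0.780 CPM in 3A, opposite to Col4a1, and Snai2 fell by 0.89 on the log2 scale. Of the 5 genes that TGF-beta is known to lower in epithelial cells, Id2 and Id3, inhibitors of basic helix-loop-helix factors, fell by 1.42 and fell by 1.01, while Myc (-0.45), Id1 (-0.27) and Cdc25a (0.26) did not pass. Bhlhe40, Col4a1, Tgfbi and Id2 were called in each of the 6 fits that left out 1 library, and Ccn2, Cdkn2b, Fn1, Snai2 and Id3 in 2, 1, 2, 2 and 1 of them.

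**Figure D4:**
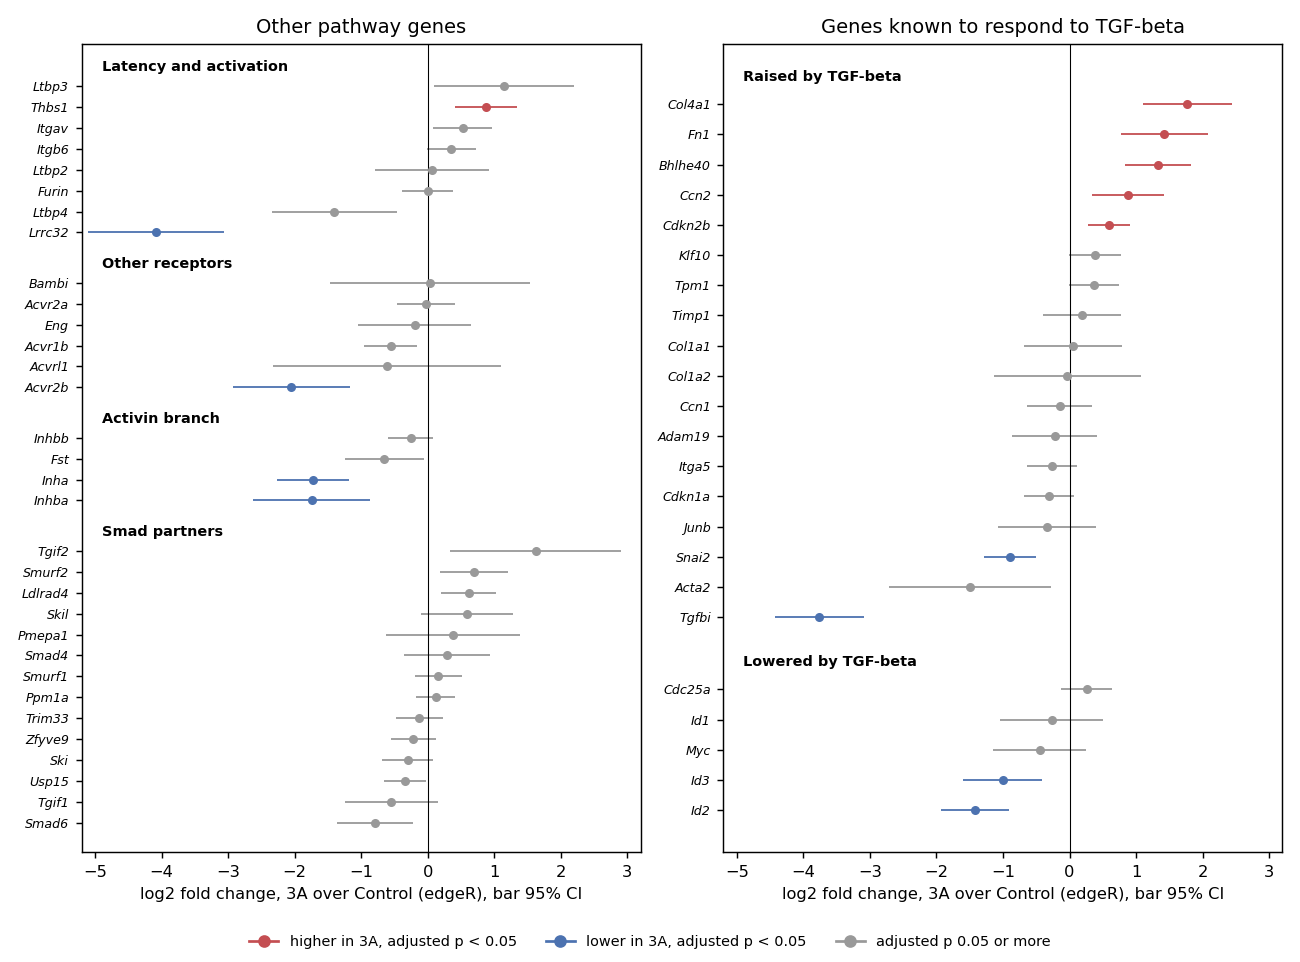
Log2 fold change of 3A over Control (horizontal axis, bars 95% confidence intervals) for the tested partner genes (left) and known TGF-beta responsive genes (right), grouped by role; red and blue mark an adjusted p under 0.05. Lrrc32 (-4.08) and Tgfbi (-3.76) are the lowest points and Col4a1 (1.77) the highest.

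The genes whose profile over the 6 libraries lay nearest to a ligand were named from genes of at least 5 CPM by Euclidean distance of centred log2 CPM, as a description with n = 6 libraries. For Tgfb1, out of 9658 candidates, they were Tecr (distance 0.130), a fatty acid elongation gene, Lurap1l (0.137) and the ribosomal protein gene Rpl8 (0.152). For Tgfb2, out of 9659, they were the transcription factor gene Maf (0.236), Tcp11l2 (0.260) and the matrix gene Adamtsl4 (0.314), with log2 fold changes of -1.40, -1.50 and -1.24. Tgfb3 did not pass the filter and was left out.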

How the data were processed

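The deposited table holds raw counts, whole reads per mouse Ensembl gene with no normalization by the authors, for 6 libraries. The submitters' processing notes list mm10 beside the human builds GRCh38 and hg38, and the tools featureCounts, Trim Galore, limma and edgeR, giving no roles. Which aligner, annotation release and strand setting were used is not given in the sources used here. Symbols, positions and exon lengths came from GENCODE M21 (GRCm38), which matched 49056 of 49315 IDs, and the unmatched IDs held at most 0.0123% of a library's counts. Exons of the members shared bases only with genes of at most 1 count in any library.

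Differential expression was tested across 13704 genes with edgeR 4.0.16 (R 4.3.3) by glmQLFit and glmQLFTest after filterByExpr and TMM scaling, with no term but group, with Benjamini-Hochberg adjustment and a threshold of 0.05. Each standard error is the size of the log2 change over the root of F. CPM used TMM-scaled library sizes. The common biological coefficient of variation was 0.264. The pipeline was tested on simulated counts. Replicate pairs differed by more than sampling noise (chi-square per degree of freedom at least 15.7). The labels do not say that replicates were separate cultures, so the p-values may reflect technical spread alone.

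Promoter sequences are RefSeq's (GRCm38.p6). The members and lists, the Smad and AP-1 motifs, the alternatives and the naming rule (all members, and every called gene of the partner and target lists) were chosen with earlier results of these data known. The TATA and GC boxes and the comparison of receptor mRNAs were added after seeing the data. One gene of the target list is not reported here and is left out of its counts. Alternatives were other scalings, other filters, DESeq2 1.42.0, limma-voom (limma 3.58.1), robust edgeR, the replicate number as a block, and each library left out.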

Additional observations from a re-analysis of the deposited data

How the results depend on the processing

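None of the 9 tested members and none of the partner and target genes called with 6 libraries changed direction in any alternative that tested it. Over members 112 of 134 such values stayed on the same side of the threshold, mostly for members not called with 6 libraries, and 9 were newly called. The 13 no longer called all belonged to the 2 called members. Tgfb2 was called in 7 of 14 alternatives and Tgfbr1 in 9 of 15. For the called partner and target genes 162 values stayed called and 48 were lost. Leaving out 1 library gave 664 to 7441 called genes over all tested (2044 with 6 libraries), 0 to 8 members (2), 2 to 18 partner genes (5) and 4 to 12 target genes (9). The highest count in each case was the fit without Control 1, and the cause was not tested. With no other change than a filter of at least 1 CPM in 3 libraries, 1 member was called, since Tgfb2 was then not tested, against 15.5% of all genes. DESeq2 called 3565 genes over all, or 26.0% of those tested, and 12 of 32 tested partner genes, 4 higher and 8 lower, and the cause was not tested. With no low-count filter 2 members were called, against 8.17% of all genes, but these were Tgfbr1 and Smad7 in place of Tgfb2. With the longest transcript as the length, added after seeing the data, the Tgfb2 share of ligand mRNA differed by -0.33 percentage points.

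The replicate numbers in the titles do not name a shared culture or day. Deviations from the group means correlated at r = -0.66, -0.42 and -0.37 for the pairs with the same number, and no library correlated best with its own number, so the pairing was not used. With the number as a block 288 genes were called over all, 0 members, 1 partner gene (Lrrc32) and 1 target gene (Tgfbi), and by edgeR the members' adjusted p ranged from 0.170 for Tgfb2 upward. Depth limits Tgfb2, Tgfb3 and Tgfbr3, which had at most 183 counts in a group. For Tgfb3 even a many-fold difference could not be seen, the 95% exact binomial interval of its ratio being 0.308 to 153.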
